A study of Mus musculus with 12 samples.

Results

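In kidney noncoding RNA of Smad3 knockout (KO) and wild-type (WT) mice, 41 of 42452 transcripts had a database match to a spliceosomal small nuclear RNA (snRNA), a transfer RNA (tRNA) or a small cytoplasmic RNA (scRNA). They were taken by the text of the match alone: it had to hold the word spliceosomal, snRNA, tRNA or scRNA, and no small nucleolar, small Cajal body or small non-messenger RNA. Of the 41, 21 matched an snRNA, 13 a tRNA and 7 an scRNA. The rule uses no measured value, though it was set with earlier results of these data known. A transcript missing from a library's table was taken as 0 reads. The transcripts are named by running number, such as ncRNA_aligned_7976.

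Spliceosomal snRNAs are the RNA parts of the particles that remove introns. U2 pairs with the branch point of the intron, U6 pairs with the 5′ splice site and builds the catalytic centre with U2, U5 holds the exon ends, and U12 and U6atac serve the minor spliceosome. tRNAs carry amino acids to the ribosome, and RNA polymerase III makes both tRNAs and U6. Both families have left many copies in mammalian genomes, a number of them within other genes.

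The tissue was whole kidney of C57BL/6J mice, with 2 libraries in each of 6 groups. KO and WT kidneys were obstructed by tying the left ureter (unilateral ureteral obstruction, UUO) and taken at day 5. Others had nephritis raised with sheep globulin (60 μg/g) to the basement membrane of glomeruli, called anti-GBM here, after immunization with sheep IgG in Freund's adjuvant, and were taken at day 10. The rest were normal KO and normal WT kidneys, labelled untreated, although the protocol text also mentions sham-operated animals. Smad3 is a transcription factor that carries TGF-β signals to the nucleus, and by its title the study looked for genes that depend on it in kidney inflammation and scarring. The Smad3 allele and the age and sex of each animal are not given in the sources used here, and nothing beyond the labels states that the libraries of a group came from separate animals, so the p-values cover only the spread between these libraries.

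Reads listed per library ran from 4595261 to 7342937, and the 41 transcripts took 0.0935% of them, or 70354 reads in all. The libraries KO UUO 1, KO anti-GBM 1 and WT UUO 1 stood apart: the covered length of a transcript, over that expected for randomly placed reads, had a median of 0.285 to 0.447 there and of 0.636 to 0.911 in the other 9. These 3 libraries listed 24 to 30 of the 41 transcripts, against 33 to 40 in the other 9. None of 13 kidney, podocyte, immune and fibroblast marker symbols occurred in the match text, the only text searched, so they gave no reading of cell make-up. In whole tissue, fewer cells of a type and less RNA per cell cannot be told apart.

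The lengths of the 41 transcripts ran from 181 to 7306 bases with a median of 1064, and 22 were over 1000 bases. None was under 150 bases, the lower limit of the gel selection that the labels describe, and mature tRNAs and U6 are shorter than that. The 41 shared 27 database entries: 8 entries were matched by more than 1 transcript, the scRNA entry U25483 by 5 and the U6 gene ENSMUSG00000088658 by 4. Members that share an entry are therefore not independent, and since the counts are of uniquely mapped reads, reads of near-identical copies may be missing or split between them.

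For 15 of the snRNA-matched transcripts the entry is an Ensembl gene, so its place and sequence are known, at 9 loci: 7 named U6, 1 U2 and 1 U6atac. The tables give no position for the transcripts themselves, so a locus is that of the match. The sequences below are the mouse genome reference NCBIM37 (mm9), 5′ to 3′ on the gene's strand, and are shown because they tell which snRNA copies were matched. Capitals mark the ACAGAGA box, with which U6 pairs with the 5′ splice site, and the GTAGTA box, with which U2 pairs with the branch point, each searched on the gene's strand. The commonest U2 copy, on the plus strand at chr11:101488680-101488870, is shown for comparison.
U6 on the X chromosome: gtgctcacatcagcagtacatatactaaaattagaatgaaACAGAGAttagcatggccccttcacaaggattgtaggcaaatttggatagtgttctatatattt
U6 at Dcun1d2: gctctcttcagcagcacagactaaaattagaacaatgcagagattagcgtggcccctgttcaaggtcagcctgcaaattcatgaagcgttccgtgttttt
U6 at Gga3: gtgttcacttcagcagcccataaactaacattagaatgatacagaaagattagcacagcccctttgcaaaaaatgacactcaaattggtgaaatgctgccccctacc
U6 at Igsf11: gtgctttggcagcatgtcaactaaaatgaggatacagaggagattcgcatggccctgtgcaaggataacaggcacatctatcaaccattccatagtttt
U2 commonest copy: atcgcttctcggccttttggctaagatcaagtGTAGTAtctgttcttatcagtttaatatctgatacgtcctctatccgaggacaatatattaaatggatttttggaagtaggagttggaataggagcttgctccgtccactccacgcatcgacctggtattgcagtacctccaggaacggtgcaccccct
U2 at Atrx: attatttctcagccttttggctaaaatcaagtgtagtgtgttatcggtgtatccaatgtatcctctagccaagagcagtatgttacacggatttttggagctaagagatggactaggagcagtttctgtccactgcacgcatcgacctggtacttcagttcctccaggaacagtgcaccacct
U6atac at Zfp644: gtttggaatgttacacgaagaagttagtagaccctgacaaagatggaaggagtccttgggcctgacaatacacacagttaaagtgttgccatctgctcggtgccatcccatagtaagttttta

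Only 1 of the 7 matched U6 loci held the ACAGAGA box, that on the X chromosome, against 60.3% of the 936 U6 genes in the annotation (564 genes). The matched U2 locus lacked the GTAGTA box, which 56.9% of 51 annotated U2 genes held (29 genes). Aligned to the commonest U2 copy, the matched U2 locus was identical at 148 bases, or 80.9% of its length. These letters describe the reference sequence and say nothing of whether a copy is made into RNA.

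Most matched loci lay within another gene. The U6 locus of ncRNA_aligned_8031 was at chr11:23379561-23379667 in an intron of Usp34, that of ncRNA_aligned_1159 at chr11:115462970-115463076 in an intron of Gga3, and the U6atac locus of ncRNA_aligned_10286 at chr5:107099018-107099140 in an intron of Zfp644, each on the strand opposite to that gene. The U2 locus of ncRNA_aligned_5445 and ncRNA_aligned_9533 was at chrX:103015222-103015404 in an intron of Atrx, also on the opposite strand. The U6 loci of ncRNA_aligned_1228, at chr8:13283115-13283214 in Dcun1d2, and of ncRNA_aligned_10074, at chr16:38927322-38927420 in Igsf11, were in introns on the same strand. The U6 locus of ncRNA_aligned_5597, ncRNA_aligned_5598, ncRNA_aligned_5599 and ncRNA_aligned_5600 was at chr7:111413197-111413304, in an untranslated exon of Trim5 on the same strand and in an intron of Trim34a on the opposite strand. That of ncRNA_aligned_231, ncRNA_aligned_232 and ncRNA_aligned_233 was at chr2:29786947-29787043, opposite an untranslated exon of Odf2. No other gene overlapped the U6 locus of ncRNA_aligned_5680 at chrX:33903894-33903997, and a second annotation column of the tables gives this transcript the model of RNase MRP RNA.

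Reads reached well beyond the matched snRNA. Among the 55 library values with 20 or more reads at these 15 transcripts, 54 covered more bases than the match is long. The match made up under 10% of the transcript in 11 of the 15, from 1.42% in ncRNA_aligned_5680 to 96.3% in ncRNA_aligned_9533. In ncRNA_aligned_5680, 3186 to 7195 of its 7306 bases were covered in each of the 12 libraries, although the matched U6 copy is 104 bases long. In ncRNA_aligned_5599 the covered length was 1070 to 3457 bases against a match of 108. The values below are thus levels of transcripts that contain or resemble such a sequence, and were not separable from levels of the snRNA itself.

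**Figure D1:**
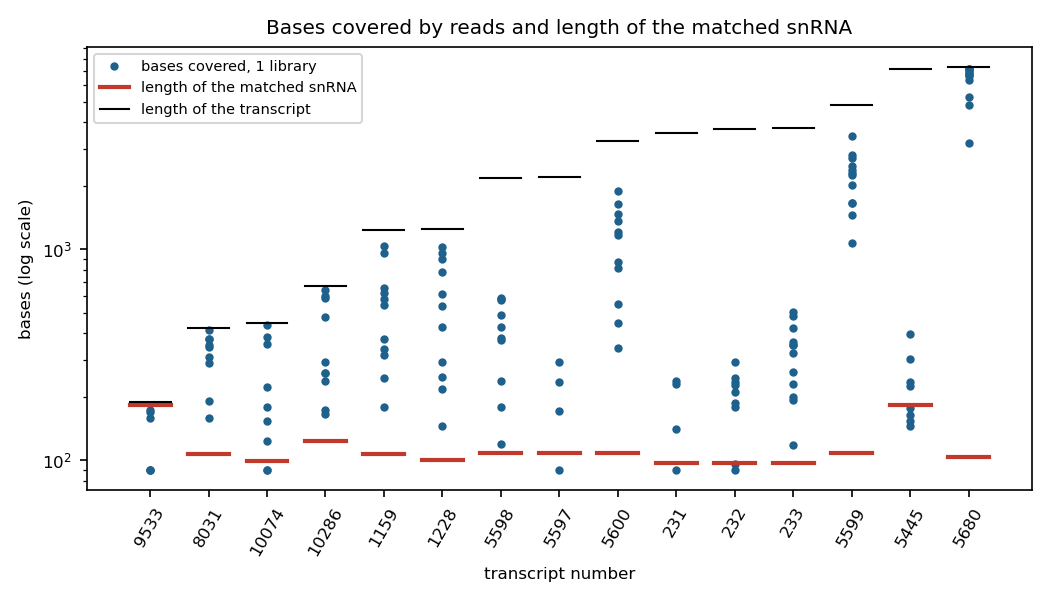
Bases covered by reads in each library (blue points, 1 per library with reads), length of the matched snRNA (red bar) and length of the transcript (black bar), in bases on a log scale, for the 15 transcripts matched to an Ensembl snRNA gene. In ncRNA_aligned_5680 every library covered at least 3186 bases, against a match of 104 bases.

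Levels per length differed widely between the 41. On a per-length scale (the deposited RPKM, reads over transcript length and over the reads listed), the U2-matched ncRNA_aligned_7976 was highest of the snRNA matches, at 34.6 to 1996 over the 12 libraries. The tRNA-Asn-matched ncRNA_aligned_6546 had 50.7 to 255 RPKM. Of the 41, 16 were listed in all 12 libraries, 10 had 1000 or more reads in all and held 92.4% of the reads, and 25 had under 200. The filter on low counts kept 34 for testing (16 snRNA, 12 tRNA and 6 scRNA matches). The 7 others had 10 to 40 reads in all.

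**Figure D2:**
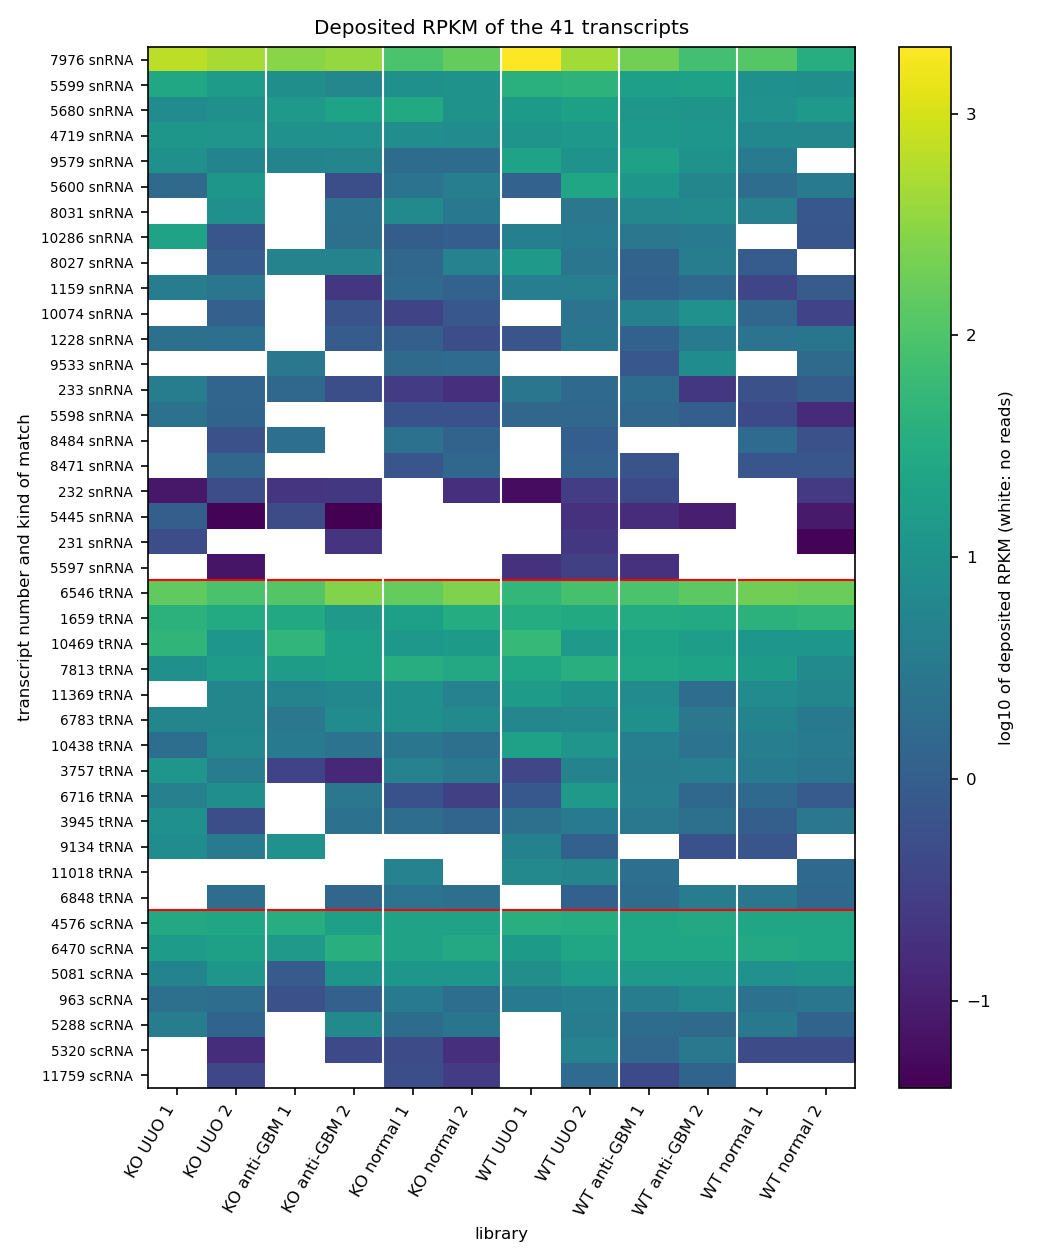
Deposited RPKM (colour, log10 scale, white for no reads) of the 41 transcripts (rows, by kind and then by mean RPKM) in the 12 libraries (columns). The U2-matched ncRNA_aligned_7976 in the top row has RPKM of 440 to 1996 in the 4 UUO libraries and of 34.6 to 156 in the 4 normal ones.

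Differences between groups were tested with edgeR's quasi-likelihood test over all 24816 transcripts that passed the filter, with p-values adjusted by Benjamini and Hochberg over these. A transcript was called where the adjusted p was under 0.05. Levels below are CPM, the read count over library size with edgeR's TMM factors, given for both libraries of a group, and fold changes are on the log2 scale with their standard error. Across the 9 comparisons of the design, 1 of the 34 tested transcripts was called, in 1 comparison.

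That transcript, ncRNA_aligned_6546, is 1103 bases long and matched tRNA-Asn (GTT), the tRNA for asparagine. In UUO kidneys of WT mice it had 257 and 707 reads, against 1282 and 1165 reads in normal WT kidneys. In CPM it had 38.0 and 59.0 in WT UUO (mean 48.5 ± 14.8, SD, n = 2) and 273 and 251 in WT normal (262 ± 15.3, n = 2). Both obstructed libraries were below both normal ones, as for 23.5% of all tested transcripts. ncRNA_aligned_6546 fell by 2.43 ± 0.48 (SE) on the log2 scale (edgeR adjusted p = 0.00606). In this comparison 1.74% of all tested transcripts were called lower and 2.42% were called in either direction, so 1 call among 34 is near the background. The call was lost when libraries were scaled by their totals alone (log2 change of -1.37, edgeR adjusted p = 0.0825), a scaling that moved the median of all tested transcripts to 1.53, against 0.49 with TMM factors.

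The same transcript was also low in other injured groups without being called. It had 109 and 102 CPM in KO UUO and 208 and 360 CPM in KO normal, a log2 change of -1.43 ± 0.47 (edgeR adjusted p = 0.588). In anti-GBM nephritis of WT mice it had 89.1 and 108 CPM, against 273 and 251 CPM in WT normal, a change of -1.41 ± 0.47 (adjusted p = 0.444). In each of these pairs the injured libraries were below the normal ones. Of all tested transcripts, 19.3% were lower without overlap in KO UUO and 21.9% in WT anti-GBM. In KO anti-GBM, by contrast, the 162 and 381 CPM of ncRNA_aligned_6546 spanned the 208 and 360 CPM of KO normal. Set against WT anti-GBM, KO anti-GBM was higher in both libraries, as for 13.4% of all tested transcripts. The difference was 1.46 ± 0.47 (edgeR adjusted p = 0.232). Between the KO and WT responses to anti-GBM it was 1.35 ± 0.65 (adjusted p = 0.5). KO UUO against WT UUO differed by 1.12 ± 0.46 (adjusted p = 0.754). None of these genotype differences passed the test on all 12 libraries. Without the 3 libraries of low coverage, which leaves KO anti-GBM with 1 library that is assumed to vary like the other groups, KO against WT anti-GBM gave 1.97 (adjusted p = 7.33e-05), and the WT anti-GBM change gave -1.41 (adjusted p = 0.00107). Leaving out 1 library at a time gave 0.66 to 1.96 for KO against WT anti-GBM, with the smallest value (adjusted p = 0.532) without KO anti-GBM 2.

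The other well-read tRNA match, ncRNA_aligned_1659 (tRNA-Thr TGT, for threonine, 6575 bases), had 144 and 113 CPM in WT UUO, against 367 and 426 CPM in WT normal. Its change of -1.63 ± 0.46 did not pass (edgeR adjusted p = 0.058), and scaling by totals alone gave -0.59 (adjusted p = 0.369). It passed in 11 of 18 alternatives, among them 8 of the 12 that leave out 1 library and the fit without the 3 libraries of low coverage (-1.88, adjusted p = 0.000502), but not when either WT UUO or either WT normal library was left out. WT anti-GBM libraries had 174 and 147 CPM, a change of -1.31 ± 0.45 from WT normal (adjusted p = 0.495). In WT mice, then, both injured groups lay below the normal group without overlap, while the KO groups overlapped: 189 and 201 CPM in KO UUO, 249 and 118 CPM in KO anti-GBM, and 148 and 289 CPM in KO normal. Lying lower without overlap was common among all tested transcripts, at 23.5% for WT UUO and 21.9% for WT anti-GBM. The share that was lower in both was not counted. The difference between the KO and WT responses to UUO was 1.46 ± 0.63 (adjusted p = 0.789).

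The remaining tRNA matches were for alanine, arginine, histidine, lysine, methionine and serine tRNAs, with 25 to 1021 reads in all. ncRNA_aligned_10469 (tRNA-Ala AGC) had 22.5 and 5.17 CPM in WT UUO and 9.35 and 9.47 CPM in WT normal, and 40.2 and 14.5 CPM in KO anti-GBM against 9.48 and 11.9 CPM in KO normal. KO UUO had 19.4 and 7.32 CPM. In each of these 3 injured groups, which hold a library of low coverage, that library was the higher of its pair; the part of coverage in this was not tested. ncRNA_aligned_7813 (tRNA-His GTG) had 2.33 and 5.66 CPM in KO UUO and 15.1 and 13.8 CPM in KO normal, a change of -1.86 ± 0.76 (adjusted p = 0.771), whereas WT UUO had 6.07 and 8.17 CPM and WT normal 7.01 and 3.45 CPM. ncRNA_aligned_3757 (tRNA-Met CAT) had 2 and 1 reads in KO anti-GBM and 32 and 19 in KO normal, a change of -3.90 ± 1.25 (adjusted p = 0.488). In WT anti-GBM it had 28 and 30 reads and in WT normal 22 and 19. ncRNA_aligned_6716 (tRNA-Ser GCT) had 32 and 58 reads in KO UUO and 4 and 2 in KO normal, a change of 3.32 ± 1.46 (adjusted p = 0.799). In WT UUO it had 4 and 110 reads, which spanned the 11 and 6 of WT normal. ncRNA_aligned_6848, matched to the same entry, went the other way in KO UUO. It had 0 and 18 reads there and 23 and 20 in KO normal, a change of -1.65 ± 1.55 (adjusted p = 0.89). None of these passed the test on all 12 libraries.

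**Figure D3:**
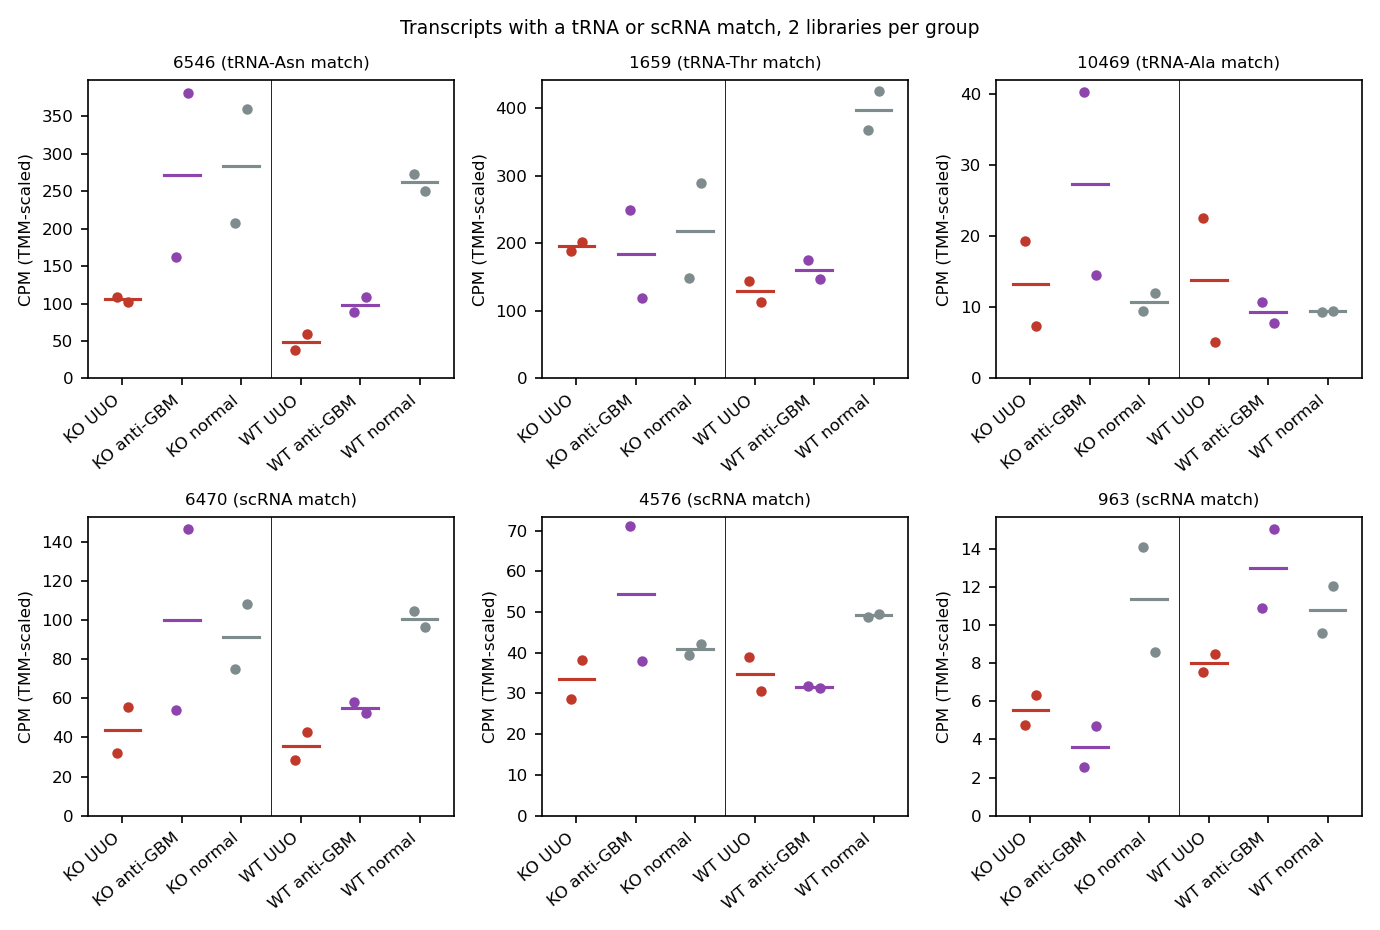
TMM-scaled CPM of 3 tRNA-matched (top) and 3 scRNA-matched transcripts (bottom) by group; points are libraries, bars the mean of 2. The tRNA-Asn match ncRNA_aligned_6546 lies at 38.0 and 59.0 CPM in WT UUO and at 273 and 251 CPM in WT normal.

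Summed over the 13 tRNA matches, WT UUO libraries had 222 and 206 CPM and WT anti-GBM 299 and 280 CPM, against 677 and 706 CPM in WT normal. KO UUO libraries had 338 and 340 CPM and KO anti-GBM 467 and 540 CPM, against 404 and 691 CPM in KO normal. Without TMM factors the WT sums were 332 ± 7.8 CPM in UUO and 520 ± 5.3 CPM in normal kidneys (SD, n = 2), the same order. The KO sums were then 491 and 331 CPM in UUO and 329 and 514 CPM in normal kidneys. These overlap, so the lower KO UUO sum depends on the scaling. The sums over the tRNA matches rest on few transcripts. They mostly repeat ncRNA_aligned_6546 and ncRNA_aligned_1659. In WT UUO the median change of the 12 tested tRNA matches was -0.27, beside 0.49 over all tested transcripts, and in WT anti-GBM it was -0.37, beside 0.29. In KO UUO it was 0.03, beside 0.004 over all, and in KO anti-GBM -0.25, beside -0.37.

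Summed over the 21 snRNA matches, WT UUO libraries had 688 and 403 CPM and WT anti-GBM 320 and 225 CPM, against 260 and 275 CPM in WT normal. KO UUO libraries had 351 and 428 CPM and KO anti-GBM 395 and 486 CPM, against 420 and 317 CPM in KO normal. WT UUO lay above WT normal, most of all through WT UUO 1, and with TMM factors the other injured groups overlapped their normal group. Without TMM factors the sums were 510 and 416 CPM in KO UUO against 342 and 236 CPM in KO normal, and 374 and 303 CPM in WT anti-GBM against 198 and 204 CPM in WT normal. Neither pair overlapped on that scale, so the overlap depends on the scaling. Scaling by totals alone also moved the median change of all tested transcripts. It was then 0.575 in KO UUO and 1.02 in WT anti-GBM, against 0.004 and 0.295 with TMM factors. Among the snRNA matches the U2-matched ncRNA_aligned_7976 (314 bases) spread widely between libraries. It had 426 and 84.5 CPM in WT UUO, against 47.6 and 14.6 CPM in WT normal. It had 145 and 157 CPM in KO UUO and 124 and 154 CPM in KO anti-GBM, against 36.3 and 65.8 CPM in KO normal. WT anti-GBM, at 54.0 and 18.3 CPM, overlapped WT normal. In each genotype both obstructed libraries were thus above both normal ones, though the WT UUO libraries were far apart. Of all tested transcripts, 31% were higher without overlap in WT UUO and 16.7% in KO UUO. Both KO anti-GBM libraries were also above KO normal, as for 11.7% of all tested transcripts. That change was 1.445 ± 0.7265 (edgeR adjusted p = 0.58) and was not called. The changes of ncRNA_aligned_7976 were 3.04 ± 0.77 in WT UUO (edgeR adjusted p = 0.0534), 1.56 ± 0.73 in KO UUO (adjusted p = 0.823) and 1.94 ± 0.74 for KO against WT anti-GBM (adjusted p = 0.292), and none was called.

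The value in WT UUO rests on the library WT UUO 1, which is of low coverage. Without it the change was 1.39 (edgeR adjusted p = 0.399), and without WT normal 2 it was 2.30 (adjusted p = 0.13). Leaving out any other single library gave adjusted p-values under 0.05. DESeq2 called the change (3.29, DESeq2 adjusted p = 0.000366), one of 3 members that it called in this comparison, where it called 10.2% of all transcripts with an adjusted p. The others were ncRNA_aligned_6546, lower, and the U6-matched ncRNA_aligned_5599, higher.

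ncRNA_aligned_5599 (4859 bases) is the best read of the 4 transcripts matched to the U6 copy at Trim5, whose product is known in primates as an antiviral restriction factor. It had 127 and 128 CPM in WT UUO and 75.4 and 70.1 CPM in WT anti-GBM, against 58.5 and 58.8 CPM in WT normal. It had 84.9 and 79.3 CPM in KO UUO and 57.3 and 40.5 CPM in KO anti-GBM, against 55.2 and 64.7 CPM in KO normal. The replicates were closer here than in ncRNA_aligned_7976. Both UUO groups lay above their normal group, as for 31% of all tested transcripts in WT UUO and 16.7% in KO UUO. The change in WT UUO was 1.12 ± 0.44 (edgeR adjusted p = 0.209). It was 1.39 with DESeq2 (DESeq2 adjusted p = 0.0182) and 2.17 in edgeR with libraries scaled by their totals alone (edgeR adjusted p = 0.00391). These were the 2 of 18 alternatives in which it passed, and none of the 12 fits that leave out 1 library called it (0.97 to 1.08, adjusted p between 0.231 and 0.816).

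The other transcripts matched to that U6 copy had fewer reads. ncRNA_aligned_5600 had 0 reads in KO anti-GBM 1, which is of low coverage, and 12 in KO anti-GBM 2, against 289 and 131 reads in WT anti-GBM. It had 49 and 81 reads in KO normal and 39 and 67 reads in WT normal. Its UUO libraries were unlike each other in both genotypes, with 36 and 245 reads in KO UUO and 18 and 569 reads in WT UUO, lower each time in the library of low coverage. ncRNA_aligned_5598 had no read in either KO anti-GBM library. With a floor of 3 reads over the group, it was at least 6.44-fold lower there than in WT anti-GBM (37 reads) and at least 5.13-fold lower than in KO normal (16 reads). For KO against WT anti-GBM, edgeR gave adjusted p-values of 0.33 for ncRNA_aligned_5600 and 0.224 for ncRNA_aligned_5598, and DESeq2 0.016 and 0.043. These were the 2 members that DESeq2 called in this comparison, in which it called 3.61% of all transcripts with an adjusted p. Of all tested transcripts, 38.2% were lower here without overlap, and the median change in edgeR was -0.615. The change of ncRNA_aligned_5600 was -4.30 in edgeR on all 12 libraries, and -10.4 to -3.39 on leaving out 1 library at a time.

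**Figure D4:**
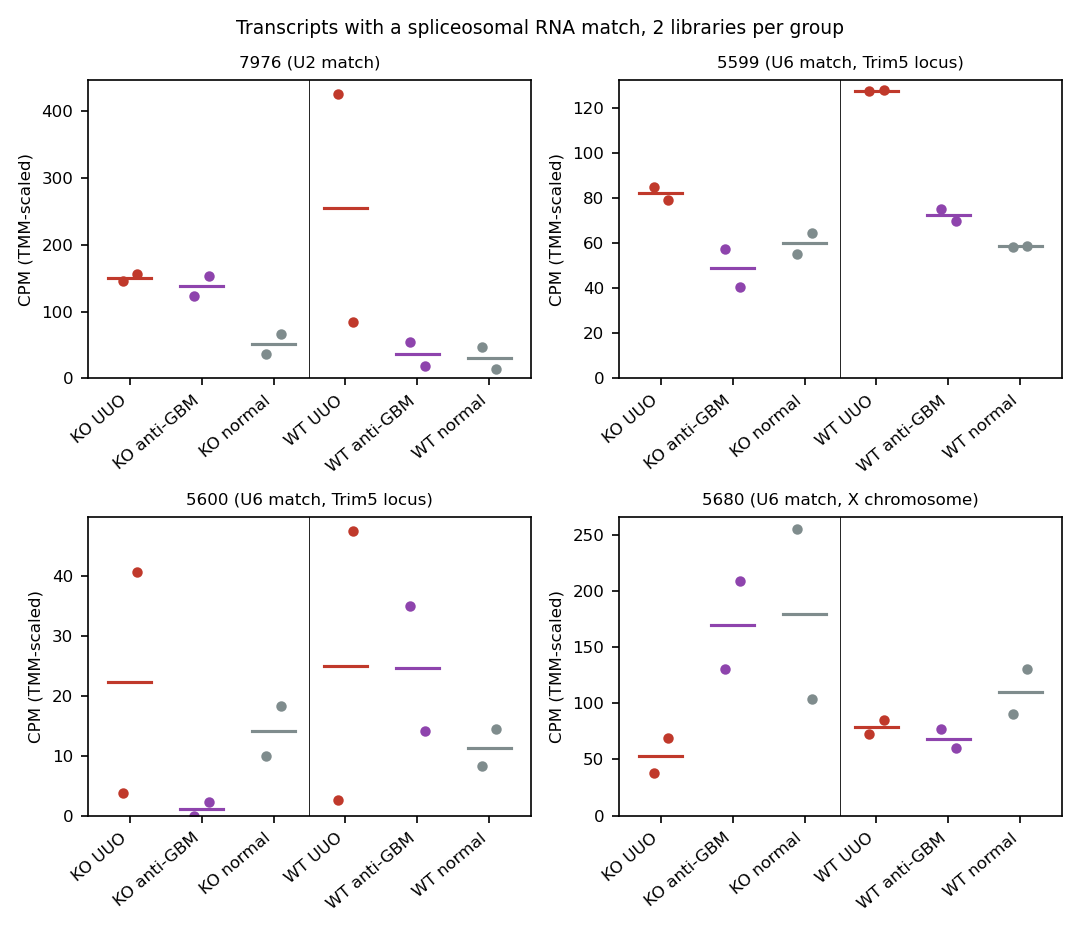
TMM-scaled CPM of 4 snRNA-matched transcripts by group; points are libraries, bars the mean of 2. The U2 match ncRNA_aligned_7976 reaches 426 CPM in WT UUO 1 and 84.5 CPM in WT UUO 2, and the U6 match ncRNA_aligned_5599 lies at 127 and 128 CPM in WT UUO against 58.5 and 58.8 CPM in WT normal.

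ncRNA_aligned_5680, the long transcript matched to U6 on the X chromosome and modelled as RNase MRP, an RNA enzyme of ribosomal RNA processing, had 37.6 and 68.9 CPM in KO UUO, against 255 and 104 CPM in KO normal. The change was -1.75 ± 0.50 (edgeR adjusted p = 0.392), and leaving out each library in turn gave -2.38 to -0.99. It passed in 1 of these 12 fits, without KO UUO 2 (adjusted p = 0.00853), which leaves only the low-coverage KO UUO 1 in that group. The smallest change came without KO normal 1. In WT mice it had 72.9 and 85.3 CPM in UUO and 90.1 and 131 CPM in normal kidneys. KO anti-GBM had 131 and 209 CPM against 77.2 and 60.1 CPM in WT anti-GBM, a difference of 1.31 ± 0.50 (adjusted p = 0.29). By comparison ncRNA_aligned_4719, matched to another U6 entry, stayed between 37.1 and 65.1 CPM in all 12 libraries.

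The sparse snRNA matches were close to the limit of counting. The U12-matched ncRNA_aligned_9579 had 18 and 13 reads in WT UUO and 25 and 13 in WT anti-GBM, against 4 and 0 in WT normal. The U5-matched ncRNA_aligned_8027 had 0 and 2 reads in KO UUO and 3 and 10 in KO normal, but 21 and 7 in WT UUO against 2 and 0 in WT normal. The difference between its KO and WT responses to UUO was -6.10 ± 2.58 (edgeR adjusted p = 0.775). ncRNA_aligned_233, matched to U6 at Odf2, had 95 and 32 reads in KO UUO, 30 and 14 in KO anti-GBM and 6 and 4 in KO normal. Its change in KO UUO was 2.84 ± 1.08 (adjusted p = 0.733). ncRNA_aligned_5445, matched to U2 at Atrx, had no read in either KO normal library. It had 50 and 2 reads in KO UUO and 18 and 2 reads in KO anti-GBM, nearly all in the library of low coverage of each group, while the other library of each was close to the floor. Its adjusted p-values were 0.748 and 0.557.

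The 7 scRNA matches carry no name beyond the class and 2 database entries. Together they had 71.0 and 115 CPM in KO UUO, 129 and 211 CPM in KO anti-GBM and 147 and 178 CPM in KO normal. WT UUO kidneys had 81.1 and 97.3 CPM, WT anti-GBM kidneys 116 and 113 CPM, and normal WT kidneys 179 and 175 CPM. In CPM of the reads listed, without TMM factors, the group means ran only from 107 ± 5.9 in KO UUO to 144 ± 12.2 in WT anti-GBM (SD, n = 2), with 139 ± 28.1 in WT UUO and 133 ± 5.0 in WT normal. The order of WT UUO and WT normal in this sum thus turns with the scaling. The largest, ncRNA_aligned_6470 (entry U25483, 2915 bases), had 28.6 and 42.7 CPM in WT UUO against 105 and 96.5 CPM in WT normal, a change of -1.50 ± 0.51 (edgeR adjusted p = 0.144). With totals alone the change was -0.44 (adjusted p = 0.555). In KO UUO it had 32.1 and 55.7 CPM against 74.8 and 108 CPM in KO normal, a change of -1.06 ± 0.51 (adjusted p = 0.823).

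The other scRNA matches to the same entry were not alike in anti-GBM nephritis. ncRNA_aligned_4576 had 71.1 and 37.9 CPM in KO anti-GBM and 39.5 and 42.2 CPM in KO normal, while ncRNA_aligned_5081 had 1.28 and 15.4 CPM and 16.1 and 16.5 CPM in the same groups. In both, the library of low coverage was the one that stood apart. ncRNA_aligned_963, matched to entry U25475, had 2.56 and 4.69 CPM in KO anti-GBM, against 10.9 and 15.0 CPM in WT anti-GBM and 14.1 and 8.57 CPM in KO normal. Its difference from WT anti-GBM was -1.82 ± 0.72 (edgeR adjusted p = 0.291). In the remaining scRNA matches, ncRNA_aligned_5288, ncRNA_aligned_5320 and ncRNA_aligned_11759, no library had more than 35 reads.

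**Figure D5:**
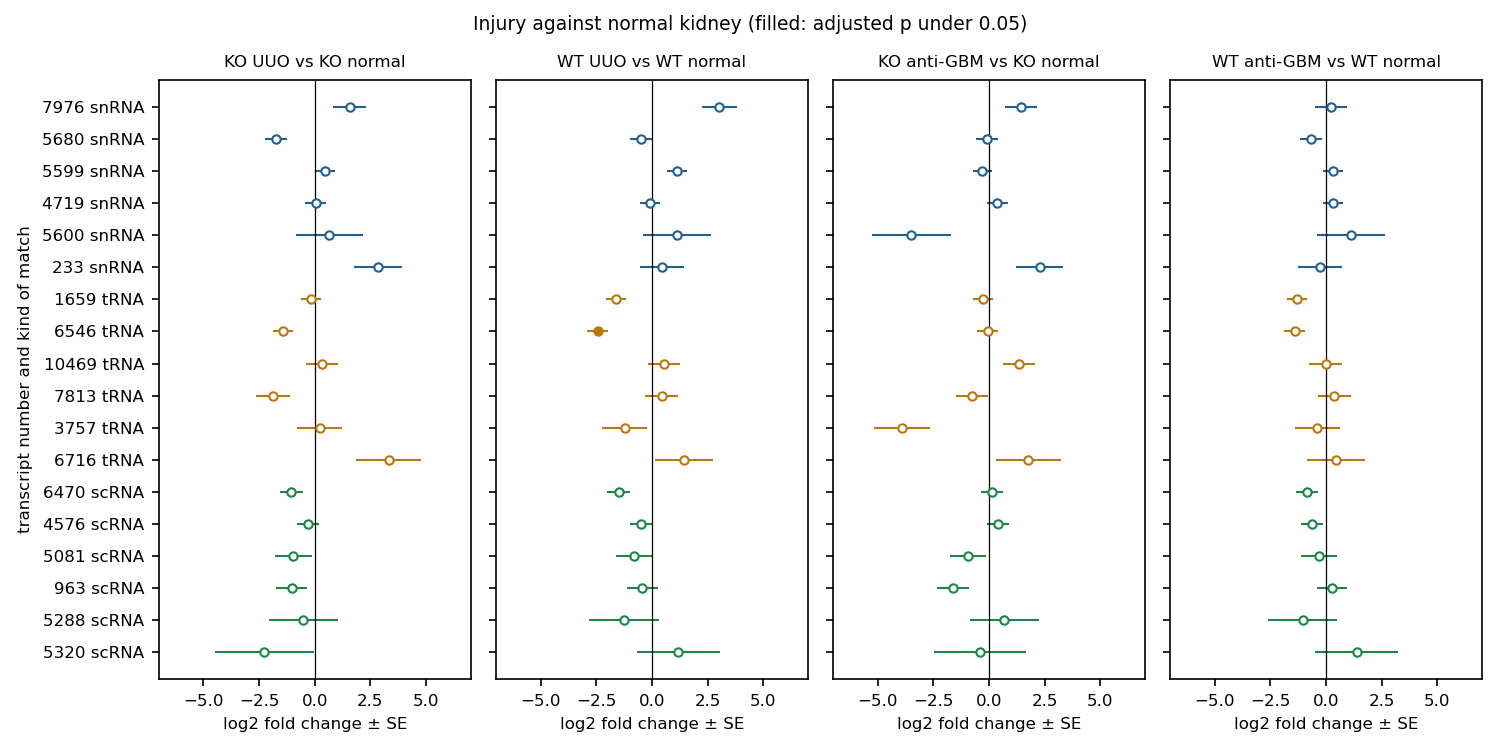
Log2 fold changes with standard errors (edgeR) of the 18 transcripts of highest mean CPM, 6 per kind, in the 4 comparisons of injured with normal kidneys; a filled point has an adjusted p under 0.05. The one filled point is the tRNA-Asn match ncRNA_aligned_6546 in WT UUO, at -2.43.

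Outside WT UUO, calls were rare among the members and among all transcripts. For injury against normal kidneys, no member was called in KO UUO (0.0121% of all tested), in WT anti-GBM (0.0201%) or in KO anti-GBM (0.0524%). For genotype, none was called between KO and WT normal (0.0161% of all), KO and WT UUO (0.00806%) or KO and WT anti-GBM (0.0201%). None was called for a KO response differing from the WT response to UUO (0.0604%) or to anti-GBM (0.0161%). At an unadjusted p under 0.05, by edgeR, 5 of the 34 passed in WT UUO (14.7%, beside 15.8% of all tested transcripts) and 8 in KO UUO (23.5%, beside 5.97%). The counts were 2 in WT anti-GBM (5.88%, beside 6.56%) and 7 in KO anti-GBM (20.6%, beside 8.74%). Between genotypes they were 0 in normal kidneys (beside 2.21%), 1 in UUO (2.94%, beside 6.08%) and 8 in anti-GBM (23.5%, beside 14.8%). For the response differences they were 4 for UUO (11.8%, beside 5.63%) and 3 for anti-GBM (8.82%, beside 10%). Comparisons with the same control group share those libraries, and members of 1 entry or gene are not independent, so these shares describe the members and are no test of them.

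Other small RNAs were looked for by name in the match text: 7SK, signal recognition particle (as SRP or 7SL), RNase P, RNase MRP, vault, Y and telomerase RNA. Only 7SK, which holds back the elongation factor P-TEFb, was named there. The second annotation column, which gives RNase MRP for ncRNA_aligned_5680, was not searched. The 7SK matches were ncRNA_aligned_8414 with 65 reads in all and ncRNA_aligned_11152 with 3. Neither passed the filter on low counts. ncRNA_aligned_8414 had 2 to 11 reads in each library.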

How the data were processed

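Kidney noncoding RNA of 12 libraries, 2 in each of 6 groups taken from the labels' genotype and disease model, was analysed. Per the labels' protocols, ribosomal RNA was removed and RNA over 150 bases was selected on a gel. The submitters' processing notes name Bowtie 0.12.7 and the build mm9; how transcripts were assembled and matched, and any strand setting, are not given in the sources used here. Each table holds, per the file headers, the count of uniquely mapped reads of each transcript, the percent of its length covered and its depth of coverage (signal). The RPKM values deposited equal reads over length and over the total of reads listed. Transcripts without reads are not listed and were set to 0.

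The counts were tested with edgeR 4.0.16 (R 4.3.3): TMM factors, filterByExpr by group, 1 mean per group over all 12 libraries, robust quasi-likelihood F tests of 9 contrasts, adjusted over 24816 transcripts. DESeq2 1.42.0 was an alternative, as were DESeq2 size factors, library totals alone, no filter, only the groups compared, and leaving out each library. Leaving out the 3 libraries of low coverage was added after seeing the data. The ratio of covered to random coverage used transcripts over 500 bases with 20 to 200 reads. The test was checked on simulated counts with known changes. For a group without reads a fold is a bound computed from 3 reads over the group, which covers counting error only; standard errors come from the F statistic.

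The members and lists were chosen with earlier results of these data known. Transcripts named are those called in any comparison, the 6 of highest mean CPM per kind and the 3 of smallest unadjusted p per comparison. The others named, among them ncRNA_aligned_9579, ncRNA_aligned_6848 and members named by locus, were chosen after their values were seen. Sequences and annotation are from NCBIM37 with the GENCODE gene models of that build, and sequences of the tRNA and scRNA entries were not used here. Copies within untranslated exons are not printed, and some U6 sequence is not reported here.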

Additional observations from a re-analysis of the deposited data

How the results depend on the processing

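No paired analysis was possible because the labels give the libraries no replicate numbers that groups share. In WT UUO against WT normal, edgeR called 1 member, and the alternatives gave 2 (DESeq2 size factors), 2 (library totals alone), 3 (DESeq2), 3 (no filter on low counts), 2 (only the groups compared) and 5 (without the 3 libraries of low coverage). Leaving out 1 library gave 1 to 4. In KO UUO the count was 0, with 2 without the 3 libraries and 0 to 3 on leaving out 1. In WT anti-GBM it was 0, with 2 from only the groups compared, 2 without the 3 libraries and 0 on leaving out any 1. In KO anti-GBM it was 0, with 2 without the 3 libraries and 0 to 1 on leaving out 1. For KO against WT anti-GBM it was 0, with 2 by DESeq2, 6 without the 3 libraries and 0 to 3 on leaving out 1. For the anti-GBM response of KO minus WT it was 0, with 2 without the 3 libraries and 0 to 1 on leaving out 1. Counts were 0 under each alternative for KO against WT in normal and in UUO kidneys and for the UUO response. The share of all tested transcripts that was called moved as well. In WT UUO it was 2.42%, with 2.34% (DESeq2 size factors), 2.46% (no filter), 4.03% (library totals alone) and 4.26% (only the groups compared). In WT anti-GBM it was 0.0201%, with 14.7% from only the groups compared. Without the 3 libraries of low coverage the share rose in every comparison. Higher member counts in that fit thus went with more calls among all transcripts.

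Fits that leave a group with 1 library tested more transcripts, 32560 to 35973 when 1 library was left out, because the filter asks for fewer libraries. The lone library is then assumed to vary like the other groups. The fall of ncRNA_aligned_6546 in WT UUO was called without each of the 12 libraries in turn (edgeR adjusted p between 3.45e-06 and 0.0449). Of 780 alternative values of 44 member results, 719 kept their direction and their side of the threshold, 58 kept the direction and passed, 1 was a change of 0, against 6.34 (ncRNA_aligned_9134 in KO anti-GBM against KO normal without KO anti-GBM 1, not called in either fit), and 1 no longer passed, which is ncRNA_aligned_6546 with library totals alone. Only 1 changed sign, ncRNA_aligned_5320 in KO UUO against WT UUO without WT UUO 2, at 2.18 against -4.05; leaving out each library in turn gave -6.36 to 2.18, and it had at most 35 reads in any library. Depth limits the 25 members with under 200 reads in all.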
